A study of Mus musculus with 15 samples.

Results

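Vascular tissue of C57BL/6 mice that received liensinine on top of angiotensin II was compared with vascular tissue of mice under angiotensin II alone. The comparison takes 10 of the 15 libraries of the series, 5 of the Lien group (Lien 11 to Lien 15, labelled Hypertension+Lien) and 5 of the AngII group (AngII 6 to AngII 10, labelled Hypertension). The 5 libraries of the NS group (NS 1 to NS 5, labelled Normal) enter the fit for its estimate of spread and are given beside some values. All animals were 10 weeks old, and no dose, route or length of treatment is given in the sources used here. The labels give vascular tissue, while their extraction note describes hearts. Which mouse each library came from is not stated, so the p-values measure the spread between these libraries, which may in part be technical.

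Angiotensin II is a peptide hormone that constricts arteries through its type 1 receptor. Over time it drives thickening of the vessel wall, in which smooth muscle cells grow and leave their contractile state, fibroblasts lay down collagen and leukocytes enter. Inside the cells the receptor signals through MAP kinases, and TGF-β signals through Smad proteins that enter the nucleus. Liensinine is an alkaloid of the lotus seed embryo. The title of the series names the MAPK, TGF-β and Smad pathways, so genes of these pathways were examined together with those of other pathways.

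Values are FPKM, fragments relative to transcript length and to library size, summed over the Ensembl transcripts of each gene. Differences are Lien minus AngII on the log2(FPKM + 1) scale, which understates changes of genes near 0. Of 32930 genes, 15586 had at least 0.5 FPKM in at least 5 libraries and were tested with limma, with Benjamini-Hochberg adjustment over all of them.

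In limma 2 genes were called higher in Lien, both encoding enzymes that build sugar chains on proteins. These were 0.0128% of the genes tested, and 0 genes fell at an adjusted p under 0.05 in limma. Of the 2, B4galt1 was called in all 28 alternative analyses. B3gat2 was called in 16 of 27, and no AngII library reached the filter for it. At an unadjusted p under 0.05, 164 genes were higher (1.05%) and 833 lower (5.34%) in Lien, together 6.4%, while 70.2% of all genes tested lay on the lower side and the median difference was -0.13. That balance turned with the scaling of the libraries. Scaled to one median, 687 genes were higher and 231 lower at the same unadjusted threshold, and with quantile normalization 530 were higher and 330 lower. Without Lien 11 541 were higher and 2424 lower. The groups lay wholly apart for 0.982% of genes, 28 with all Lien libraries above all AngII libraries and 125 with all below, and with scaling to one median these were 99 and 46.

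**Figure D1:**
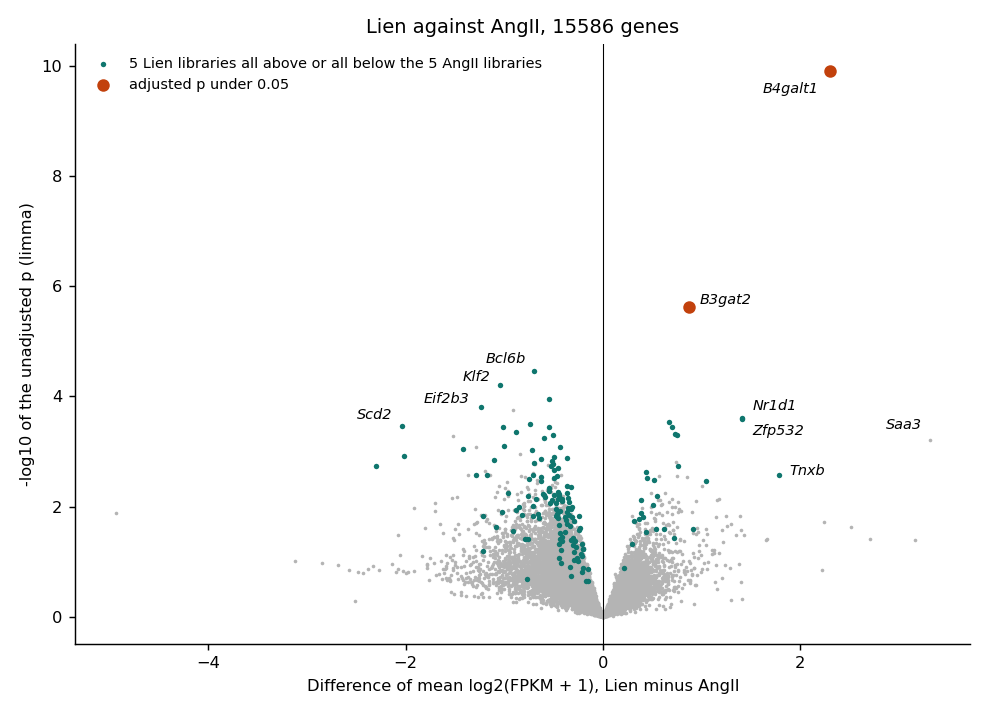
Difference of mean log2(FPKM + 1), Lien minus AngII, on the x axis against -log10 of the unadjusted limma p on the y axis for the 15586 genes tested. B4galt1 and B3gat2, the 2 called genes, stand above all others, and the genes whose 5 Lien libraries all lay above or all below the 5 AngII libraries are 28 on the higher and 125 on the lower side.

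B4galt1 (chr4:40804602-40854005, minus strand, GRCm38) encodes the Golgi enzyme that adds galactose to N-acetylglucosamine at the ends of glycoprotein chains. It stood at 32.2, 21.7, 25.6, 24.6 and 23.1 FPKM in Lien 11 to 15, against 4.73, 4.28, 3.78, 4.15 and 4.73 FPKM in AngII 6 to 10. Every Lien library was far above every AngII library, and the NS libraries, at 4.52 to 7.18 FPKM, were also below all Lien libraries. The gene rose by 2.30 on the log2 scale (SE 0.15, limma adjusted p = 1.9e-06). B4galt1 passed in all 28 alternative analyses, with differences from 2.21 to 2.52 and adjusted p-values up to 0.00351.

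The rise of B4galt1 lay in 1 annotated transcript. B4galt1-201 held nearly the whole gene value, at 25.4 ± 4.06 FPKM in Lien and 4.30 ± 0.44 FPKM in AngII (SD, n = 5 each), and rose by 2.31 (SE 0.19, limma adjusted p = 1.22e-04 over 41843 transcripts). The shorter B4galt1-202 stayed at or below 0.153 FPKM in every Lien library and at or below 0.101 FPKM in every AngII library, while NS 1 to 3 had 1.48, 5.16 and 1.93 FPKM of it. An assembled transcript with no public identifier, named here because it was the transcript with the smallest p, moved the other way. It stood at 0, 2.32, 0.01, 0 and 0.58 FPKM in Lien 11 to 15, against 26.4, 27.8, 31.7, 31.0 and 31.7 FPKM in AngII 6 to 10. It fell by 4.46 (SE 0.28, limma adjusted p = 5.08e-06), and the NS libraries had 25.3 to 29.6 FPKM of it.

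The files do not give a gene or a position for the assembled transcript, and its link to B4galt1 was not tested. As a description chosen after the values were seen, its sum with B4galt1 was 26.0 ± 3.54 FPKM in Lien and 34.05 ± 2.32 FPKM in AngII (SD, n = 5 each). The sum overlapped between the groups, since Lien 11 had 32.2 FPKM and AngII 6 had 31.1 FPKM, and its log2 difference was -0.38. B4galt1 made up 90.4% to 100% of that sum in Lien libraries and 10.7% to 15.2% in AngII libraries.

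B3gat2 (chromosome 1) encodes a glucuronyltransferase that takes part in making the HNK-1 sugar epitope of neural glycoproteins. It stood at 0.93, 0.76, 0.80, 1.34 and 0.99 FPKM in Lien 11 to 15, against 0.06, 0.02, 0.26, 0 and 0.01 FPKM in AngII 6 to 10. The groups did not overlap, and the NS libraries, at 0.931 to 1.35 FPKM, overlapped the Lien libraries. No AngII library reached 0.5 FPKM, so the gene entered the test through the Lien and NS libraries alone. The gene was called higher in Lien, by 0.88 (SE 0.12, limma adjusted p = 0.0186), or by 2.81 with a pseudocount of 0.1. The call is less firm than that of B4galt1. It held in 16 of the 27 alternatives in which the gene was tested and was lost in 11, with an adjusted p of 0.158 in a fit of the 10 libraries alone, 0.0522 with quantile normalization, 0.0874 with scaling to one median and 0.426 without the 6 libraries rich in nerve genes. It was also lost without Lien 15 (0.0832), AngII 6 (0.0997), AngII 7 (0.114), AngII 9 (0.0686) or AngII 10 (0.0871). All of its value came from B3gat2-201, which missed the threshold among transcripts (limma adjusted p = 0.0579). The other annotated transcripts, B3gat2-202 and B3gat2-203, were listed at 0 in all 10 libraries.

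The other enzymes of sugar chain synthesis did not follow these genes. Of 28 galactosyltransferase and N-glycan branching genes tested, B4galt1 alone passed, 9 (B4galt1 included) were higher and 19 lower, and the median was -0.10, close to the -0.13 of all genes. B4galt3 and B4galt5, which belong to the same enzyme family as B4galt1, had differences of -0.76 (unadjusted p = 0.0079) and -0.56 (unadjusted p = 0.0415). B4galt3 stood at 0.905 to 1.59 FPKM in Lien and 1.57 to 4.00 FPKM in AngII. Of 27 genes for glycosaminoglycan chains, B3gat2 passed, 11 were higher and 16 lower, and the median was -0.06. Chpf2, which takes part in chondroitin polymerization, was at 11.6 to 19.0 FPKM in Lien and 5.96 to 12.3 FPKM in AngII and did not pass (log2 0.63, unadjusted p = 0.0058). Under scaling to one median the list medians were 0.09 and 0.13, on the other side of 0.

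Among transcripts 4 of 41843 passed (0.00956%), 2 in each direction. At an unadjusted p under 0.05 the share was 5.51%, and 0.856% of transcripts did not overlap between the groups. Of the 4, 2 belong to genes whose total differed less than the transcript did. Ccdc50 encodes a coiled-coil protein that takes part in ubiquitin-linked signalling. Its transcript Ccdc50-203 was at 21.7, 20.9, 12.1, 11.5 and 18.8 FPKM in Lien 11 to 15, against 1.84, 1.23, 1.31, 1.09 and 2.06 FPKM in AngII 6 to 10, and rose by 2.82 (SE 0.39, limma adjusted p = 0.0436). Ccdc50-202 had the opposite profile, with 0 to 1.28 FPKM in Lien and 6.95 to 9.41 FPKM in AngII, and did not pass (log2 -2.51, limma adjusted p = 0.326). The gene sum was 19.2 ± 5.97 FPKM in Lien and 12.4 ± 0.78 FPKM in AngII (SD, n = 5 each) and did not pass (log2 0.55, limma adjusted p = 0.74), although the lowest Lien library (13.31 FPKM) lay just above the highest AngII library (13.29 FPKM). The 203 form held 77.9% to 99.0% of the gene in Lien and 8.48% to 18.4% in AngII.

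That profile was not confined to Lien. NS 4 had 13.1 FPKM of Ccdc50-203 and 0.773 FPKM of Ccdc50-202, while the other 4 NS libraries had 1.75 to 2.20 FPKM and 7.20 to 10.3 FPKM of them. The call for Ccdc50-203 held in 2 of 17 alternatives, with an adjusted p of up to 0.162. The coding sequences of these transcripts differ by an exon of 45 bases (chr16:27436368-27436412, plus strand, GRCm38). Only values per transcript are given, so whether use of that exon differed between the groups was not tested. The capitals mark that exon, and the small letters are the 30 coding bases on either side in the spliced transcript:
Ccdc50-203: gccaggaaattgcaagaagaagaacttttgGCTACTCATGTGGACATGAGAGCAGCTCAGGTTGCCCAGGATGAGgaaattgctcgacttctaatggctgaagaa
Ccdc50-202: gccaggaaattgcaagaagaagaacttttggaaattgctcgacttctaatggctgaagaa
The transcripts also differ outside the coding sequence, where Ccdc50-203 has a last exon of 5971 bases and Ccdc50-202 one of 134 bases. How the authors' quantifier divided fragments among overlapping transcripts is not given in the sources used here.

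Rassf6 encodes a Ras-association domain protein. Its transcript Rassf6-206 was listed at 0 in all 5 Lien libraries and at 1.98, 2.08, 1.61, 1.67 and 2.76 FPKM in AngII 6 to 10. It was called lower in Lien (limma adjusted p = 0.0179), and no fold is given because every Lien library is listed at 0. It was also at 0 in 4 of the 5 NS libraries and at 1.16 FPKM in NS 5. The transcript thus reached the filter of 0.5 FPKM in 5 libraries only through the AngII libraries and NS 5. Its p-value is therefore not separate evidence of a fall. The gene as a whole was at 7.84 ± 2.68 FPKM in Lien and 7.68 ± 1.41 FPKM in AngII (SD, n = 5 each), a log2 difference of -0.01 with overlapping groups. The call held in 8 of 17 alternatives, with an adjusted p of up to 0.0857. Rassf6-201 differs from it by 39 coding bases at the start of an exon (chr5:90608954-90608992, minus strand, GRCm38), in capitals between the coding bases that both transcripts share:
Rassf6-201: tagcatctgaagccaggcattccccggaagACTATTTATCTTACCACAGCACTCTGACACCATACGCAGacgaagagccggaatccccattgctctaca
Rassf6-206: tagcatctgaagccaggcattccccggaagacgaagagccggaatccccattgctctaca
Rassf6-201 itself was at 0.713 to 3.51 FPKM in Lien and 0 to 1.78 FPKM in AngII, with overlap.

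**Figure D2:**
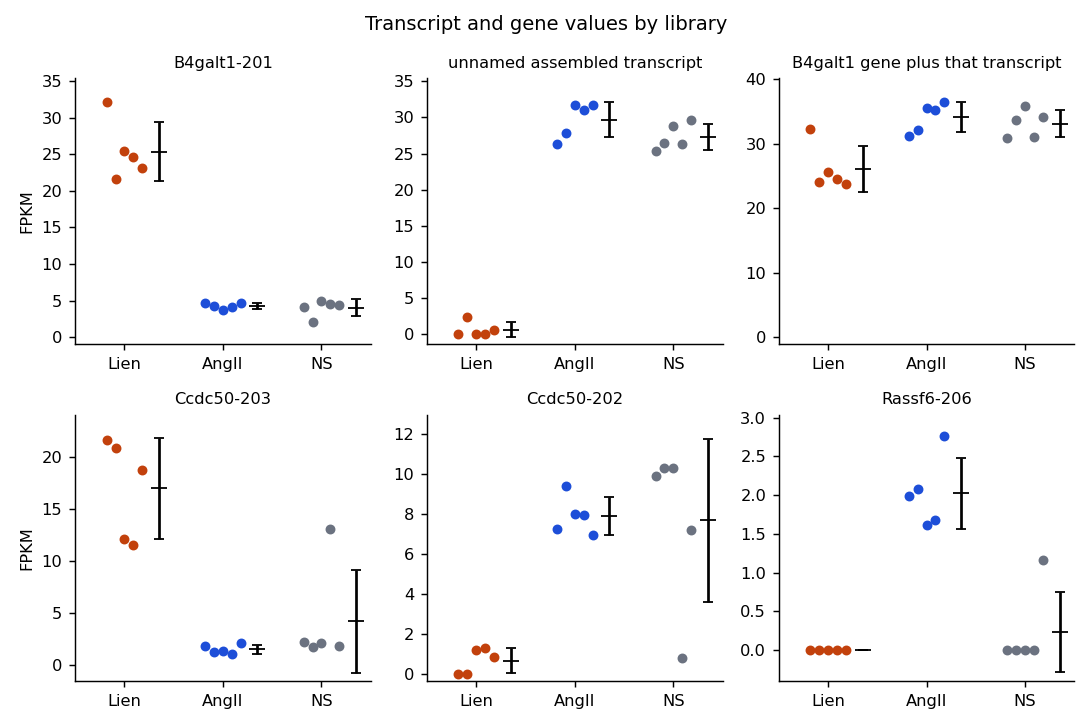
FPKM by library (points, Lien, AngII and NS from left to right, with mean and SD beside them) for the called transcripts, for Ccdc50-202 and for the sum of B4galt1 and the unnamed assembled transcript. B4galt1-201 lies at 21.6 to 32.2 FPKM in Lien and 3.68 to 4.73 FPKM in AngII, and NS 4 stands with the Lien libraries for both Ccdc50 transcripts.

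No single gene besides these passed, and the following are named for their small p-values without a call. On the higher side, Nr1d1, Zfp532, Creld1, Nudt1, Syt3 and Nnmt had all 5 Lien libraries above all 5 AngII libraries, as did 0.18% of all genes. Nnmt, which methylates nicotinamide, stood at 17.6, 25.7, 31.3, 27.6 and 21.8 FPKM in Lien 11 to 15, against 13.3, 13.4, 14.7, 13.7 and 15.05 FPKM in AngII 6 to 10 (log2 0.75, limma adjusted p = 0.411). Nudt1, which clears oxidized nucleotides, stood at 4.01 to 5.49 FPKM in Lien and 2.19 to 2.69 FPKM in AngII (log2 0.70, limma adjusted p = 0.378). Creld1, an endoplasmic reticulum protein, had 34.2 to 48.0 FPKM in Lien and 18.8 to 29.2 FPKM in AngII (log2 0.67), and Syt3, a synaptotagmin that binds calcium, had 2.98 to 3.75 and 1.03 to 2.25 FPKM in the same order (log2 0.73).

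Saa3, an acute-phase serum amyloid of fat tissue and macrophages, had the largest positive difference among all genes tested, at 3.32 (SE 0.76, limma adjusted p = 0.429). It stood at 65.4, 23.4, 30.7, 4.26 and 66.0 FPKM in Lien 11 to 15, against 15.2, 0, 1.46, 2.84 and 0.21 FPKM in AngII 6 to 10. Only Lien 14 lay within the AngII range, and the spread within the Lien group was wide. Tnxb, which encodes the matrix protein tenascin-X, was at 0.787 to 5.46 FPKM in Lien and listed at 0 in all 5 AngII libraries. It therefore entered the test without any AngII library. Zfp532 (a zinc finger gene), Usp30 (a mitochondrial deubiquitinase), Rom1 (a tetraspanin) and Amd1 (a decarboxylase of polyamine synthesis) had differences of 1.41, 0.77, 0.44 and 0.74, and the Amd1 groups overlapped at a single pair of libraries.

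On the lower side, Bcl6b and Klf2 had the smallest p, and neither passed. Klf2, a transcription factor that laminar flow induces in endothelium, stood at 59.5, 46.8, 32.2, 40.0 and 30.5 FPKM in Lien 11 to 15, against 82.6, 121.7, 67.6, 88.0 and 74.0 FPKM in AngII 6 to 10 (log2 -1.05, SE 0.19, limma adjusted p = 0.238). The groups did not overlap, as in 0.802% of all genes on the lower side. Bcl6b, a transcriptional repressor found in endothelium, stood at 3.38, 3.59, 3.05, 3.93 and 2.93 FPKM in Lien 11 to 15, against 7.42, 6.02, 6.07, 5.57 and 5.37 FPKM in AngII 6 to 10 (log2 -0.69, limma adjusted p = 0.175). The NS libraries had 11.3 ± 0.79 FPKM of Bcl6b, above both groups. Klf2 passed in 2 of 28 alternatives, with library weights (limma adjusted p = 0.0482) and without Lien 11 (0.0412), and its adjusted p reached 0.72 in the others. Bcl6b passed in 1 of 28, with library weights (limma adjusted p = 0.0482), with an adjusted p of up to 0.803 in the others, and its difference was -0.50 with scaling to one median.

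The remaining genes of this side have varied roles. Scd2, a stearoyl-CoA desaturase, stood at 12.9, 3.28, 8.44, 2.83 and 3.67 FPKM in Lien 11 to 15, against 37.5, 21.4, 17.0, 41.3 and 17.0 FPKM in AngII 6 to 10, with no overlap (log2 -2.04, limma adjusted p = 0.378). The libraries highest in nerve markers, Lien 11 and AngII 6 and 9, were also the highest in Scd2 within their groups. With a nerve covariate the difference was -1.60, and the part of nerve RNA in Scd2 was not tested. Crbn, which picks the substrates of a cullin ubiquitin ligase and which thalidomide-type drugs bind, was at 10.7 to 15.1 FPKM in Lien and at 27.0 to 32.2 FPKM in AngII apart from 14.4 FPKM in AngII 9, and it passed without that library (limma adjusted p = 0.00804) but in none of the other 27 alternatives (up to 0.817). Eif2b3, a subunit of the exchange factor that restarts translation initiation, was at 1.68 to 3.60 FPKM in Lien and 4.04 to 10.6 FPKM in AngII (log2 -1.24). Cdk17, Dmtf1, Tjap1, Vgll4 and Zbtb11 had differences of -0.54, -0.74, -1.01, -1.52 and -0.60. Of these 5, Vgll4 alone overlapped between the groups.

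No gene of the circadian clock passed, and Nr1d1 and Cry1 had the smallest p-values among them. In the clock, the activators Clock and Arntl (BMAL1) drive the Per and Cry genes, whose proteins shut the activators off, and Nr1d1 (REV-ERBα) represses Arntl. Nr1d1 stood at 37.5, 45.2, 38.1, 47.2 and 52.3 FPKM in Lien 11 to 15, against 26.2, 27.7, 10.8, 13.4 and 9.27 FPKM in AngII 6 to 10 (log2 1.41, SE 0.29, limma adjusted p = 0.378). Cry1 stood at 4.22, 4.36, 3.19, 2.23 and 3.04 FPKM in Lien 11 to 15, against 4.55, 5.76, 10.0, 7.80 and 7.78 FPKM in AngII 6 to 10 (log2 -0.88, SE 0.20, limma adjusted p = 0.411). Neither passed, and neither overlapped between the groups, beside 0.18% of all genes apart on the higher and 0.802% on the lower side. Both were picked for their small p-values in this comparison, so their separation is not separate evidence. AngII 6 and AngII 7 lay nearest to the Lien libraries for both genes. The 6 libraries rich in nerve genes are Lien 11, AngII 6, AngII 7, AngII 9, NS 2 and NS 3. Without them, which leaves 4 Lien and 2 AngII libraries, Nr1d1 had a limma adjusted p of 0.00738 (log2 2.08). That fit leaves out AngII 6 and AngII 7, the AngII libraries nearest to Lien for Nr1d1. This was the only 1 of 28 alternatives in which Nr1d1 passed, and its adjusted p reached 0.864 in the others.

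The other 13 core clock genes overlapped, and the median over all 15 was -0.10, or 0.10 with scaling to one median. Arntl, which REV-ERBα represses, was at 8.29, 0.95, 0.68, 5.10 and 4.80 FPKM in Lien 11 to 15, against 1.91, 4.19, 1.94, 6.82 and 3.37 FPKM in AngII 6 to 10, with overlap throughout (log2 -0.10). Per2 was at 3.13 to 5.13 FPKM in Lien and 4.45 to 6.49 FPKM in AngII (log2 -0.34, unadjusted p = 0.0614). Among 14 clock output genes, 9 lay on the higher and 5 on the lower side, with a median of 0.04, or 0.23 with scaling to one median. Of the 14, 4 had an unadjusted p under 0.05, all on the lower side, beside 5.34% of all genes, and none passed. These were Tsc22d3, a glucocorticoid-induced leucine zipper gene (log2 -0.80), Nfil3, a repressor at D-box elements (-0.59), Bhlhe40, a repressor at E-box elements (-0.89), and Rev3l, a DNA polymerase subunit (-0.37). Wee1, a kinase that holds back cell division, had a difference of -0.26. Dbp, a direct target of the clock activators, was at 3.76 to 7.61 FPKM in Lien and 4.15 to 6.50 FPKM in AngII (log2 0.04). The labels give no hour of tissue collection, and the part of that hour in these values was not tested.

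**Figure D3:**
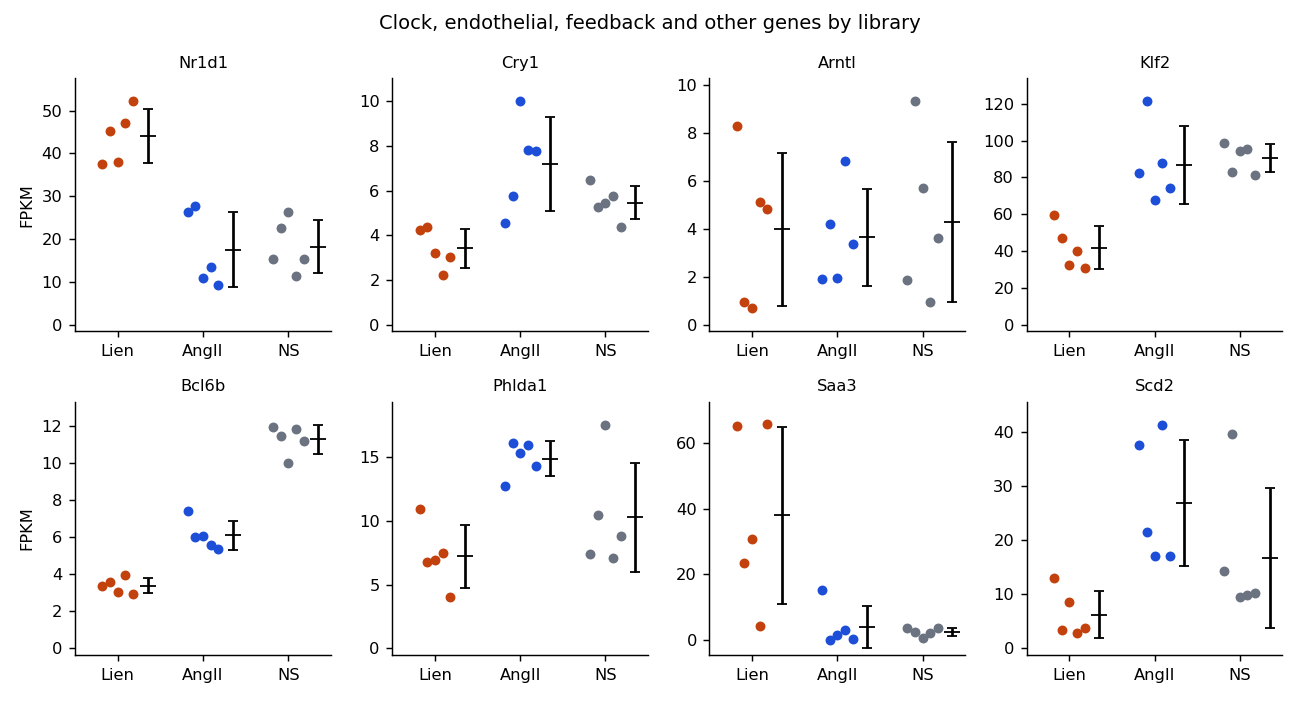
FPKM by library (points, Lien, AngII and NS from left to right, with mean and SD beside them) for genes of the clock, of endothelium and of other groups. Nr1d1, Cry1, Klf2, Bcl6b, Phlda1 and Scd2 do not overlap between Lien and AngII, Saa3 overlaps at Lien 14, and Arntl overlaps throughout.

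The promoters of the clock genes that stood apart were read from RefSeq (GRCm38.p6) over the 250 bases before the transcription start. The E-box CACGTG, the D-box TTATGTAA, the site AGGTCA of ROR and REV-ERB receptors, the cAMP response element TGACGTCA and the serum response element were searched on both strands in windows that also held the 50 bases after the start, and no motif contains another. Capitals mark the matches. Nr1d1 (chr11:98775378-98775627, minus strand) has none, Cry1 (chr10:85185055-85185304, minus strand) has an E-box that starts 60 bases before the start, and Dusp1 (chr17:26508473-26508722, minus strand), a feedback gene described below, has a cAMP response element 143 and an E-box 126 bases before it:
Nr1d1: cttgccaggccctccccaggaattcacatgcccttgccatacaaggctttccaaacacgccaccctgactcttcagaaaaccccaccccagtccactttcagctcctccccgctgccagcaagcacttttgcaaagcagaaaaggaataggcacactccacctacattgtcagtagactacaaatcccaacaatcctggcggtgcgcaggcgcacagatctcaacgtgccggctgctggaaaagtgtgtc
Cry1: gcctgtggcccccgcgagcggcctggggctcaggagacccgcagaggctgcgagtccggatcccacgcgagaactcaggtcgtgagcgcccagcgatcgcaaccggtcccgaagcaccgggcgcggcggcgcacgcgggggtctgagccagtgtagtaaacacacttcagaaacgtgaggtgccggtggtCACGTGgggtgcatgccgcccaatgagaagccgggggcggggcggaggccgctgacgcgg
Dusp1: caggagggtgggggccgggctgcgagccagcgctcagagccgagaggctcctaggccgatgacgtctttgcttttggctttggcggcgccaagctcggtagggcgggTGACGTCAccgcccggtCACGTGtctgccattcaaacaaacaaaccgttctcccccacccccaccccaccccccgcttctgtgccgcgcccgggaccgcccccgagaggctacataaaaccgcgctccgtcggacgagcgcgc
The 24 clock genes with a promoter had 36 windows. An E-box was in 16.7% of these (Bhlhe41, Ciart, Cry1, Per1 and Tef) and in 7.15% of all 32851 windows. The receptor site was in 19.4% of the clock windows (Arntl, Clock, Lpin1, Nampt, Nfil3, Nr1d2 and Per1) and in 16.3% of all windows, shares close to each other. A cAMP response element was in 9.76% of the 41 windows of 32 early and feedback genes (Btg2, Dusp1, Dusp8 and Maff) and in 1.79% of all windows. These matches describe letters in a window and were not tested for binding.

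Genes that MAP kinase signalling induces and that dampen it in turn did not pass. Of 18 phosphatases and feedback inhibitors tested, 0 were called in limma and 16 lay on the lower side, as did 70.2% of all genes, or 13 with scaling to one median. Of the 18, 5 had an unadjusted p under 0.05, all lower, beside 5.34% of all genes on that side. The median was -0.29, against -0.13 over all genes. That median was negative in all 28 alternatives, at -0.10 with scaling to one median and -0.43 without Lien 11. Phlda1, a pleckstrin homology protein that growth factors induce, stood at 10.9, 6.79, 6.90, 7.46 and 4.00 FPKM in Lien 11 to 15, against 12.7, 16.1, 15.4, 15.9 and 14.3 FPKM in AngII 6 to 10 (log2 -1.001, limma adjusted p = 0.508). Dusp1, a nuclear phosphatase of p38, JNK and ERK, stood at 101.7, 89.2, 58.0, 88.2 and 75.0 FPKM in Lien 11 to 15, against 113.9, 119.2, 107.6, 116.9 and 218.1 FPKM in AngII 6 to 10 (log2 -0.68). Dusp16, a phosphatase of JNK, stood at 4.58, 0.58, 4.19, 4.04 and 4.13 FPKM in Lien, against 8.05, 6.91, 6.52, 6.99 and 6.64 FPKM in AngII, in the same library order (log2 -0.96). These 3 genes and Dusp6, a phosphatase of ERK named after its values were seen (log2 -0.27), did not overlap between the groups, 4 of 18 beside 0.802% of all genes on the lower side. Dusp2 had a difference of -1.65 with overlap, and Spry1, a Sprouty inhibitor with one of the higher levels in the list, one of -0.26.

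The early transcription factors had the lowest median of the pathway lists. Of 22 tested, 20 lay on the lower side, or 19 with scaling to one median, beside 70.2% of all genes. At an unadjusted p under 0.05, 10 were called, all lower, beside 5.34% of all genes on that side. In limma 0 passed, and every one overlapped between the groups. The median was -0.50, and it stayed between -0.63 and -0.30 in the 28 alternatives. Myc, a driver of cell growth, was at 3.81 to 7.62 FPKM in Lien and 5.82 to 12.01 FPKM in AngII (log2 -0.69, unadjusted p = 0.00581). Klf6, Egr3 and Atf3, inducible zinc finger and leucine zipper factors, had differences of -0.41, -1.01 and -0.89. Jund and Jun, the AP-1 subunits with the highest levels in the list, had differences of -0.25 and -0.26. These genes are also induced by handling of tissue, and the part of handling was not tested.

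The kinases themselves differed little. Of 22 genes of the ERK cascade and 19 of the p38 and JNK cascades, 0 had an unadjusted p under 0.05 in limma, and the medians were -0.19 and -0.15, against -0.13 over all genes. Scaled to one median they were 0.01 and 0.05. Mapk3 (ERK1) was at 53.8 to 116 FPKM in Lien and 59.5 to 118 FPKM in AngII (log2 -0.21, SE 0.26). Mapk8 (JNK1) and Mapk14 (p38α) had differences of -0.25 (SE 0.21) and 0.05 (SE 0.26). Mknk2, a kinase downstream of ERK, and Map3k1, a kinase upstream of JNK, had the smallest p-values of their lists, with differences of -0.30 and -0.50. RNA levels do not report the phosphorylation of these kinases.

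The TGF-β and Smad genes named by the title of the series did not pass either. Of 15 ligands, receptors and binders, 12 lay on the lower side, as did 70.2% of all genes. In limma 0 had an unadjusted p under 0.05, and the median was -0.25, or 0.02 without Lien 13. Tgfb1, the ligand, was at 34.6, 17.3, 12.7, 15.7 and 16.7 FPKM in Lien 11 to 15, against 22.9, 36.9, 18.7, 40.0 and 14.8 FPKM in AngII 6 to 10 (log2 -0.43, SE 0.30). The highest Tgfb1 values were in AngII 7 and AngII 9, the libraries with the most T cell and B cell RNA, and in Lien 11, which had the most in its group. With a lymphocyte covariate the Tgfb1 difference was -0.0038. T cell and B cell RNA varied with the groups as well, so its part and that of treatment cannot be told apart, and neither was tested. The receptor genes Tgfbr1 and Tgfbr2 had differences of -0.32 (SE 0.27) and -0.20 (SE 0.16), with Lien 11 the highest library of its group in each. Tgfbr3, the co-receptor betaglycan, had one of -0.29 (unadjusted p = 0.0514).

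Among 13 Smads and their regulators, 10 lay on the lower side, beside 70.2% of all genes, and the median was -0.22. Smad2 and Smad3, the effectors that TGF-β receptors phosphorylate, had differences of 0.08 (SE 0.12) and -0.26 (SE 0.14), and Smad4, their common partner, one of -0.24 (SE 0.11, unadjusted p = 0.0501). Smad7, the inhibitor that TGF-β induces, had one of -0.22 (SE 0.30). Smad6, an inhibitor that acts mainly on BMP signalling, was the one member with an unadjusted p under 0.05. It stood at 16.1, 18.6, 8.17, 14.4 and 15.7 FPKM in Lien 11 to 15, against 6.71, 10.9, 6.42, 7.02 and 11.8 FPKM in AngII 6 to 10 (log2 0.70, unadjusted p = 0.00723), and the groups overlapped through Lien 13. Of 14 TGF-β target genes, 11 lay on the lower side, with a median of -0.25, or 0.12 without Lien 13. Tgfbi, a secreted matrix protein, was at 156.8 FPKM in Lien 11 and 34.4 to 75.9 FPKM in Lien 12 to 15, against 105.3 to 142.1 FPKM in AngII (log2 -0.80).

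Matrix genes were as variable within groups as between them. The list of 28 fibrillar collagens and other matrix genes split into 17 on the higher and 11 on the lower side, against 29.8% of all genes higher. Their median was 0.15, or -0.14 without Lien 11. With scaling to one median it was 0.35, with 23 higher, and without the libraries rich in nerve genes -0.29, with 8 higher. Col1a1, a chain of type I collagen, stood at 805.9, 179.5, 119.8, 336.1 and 335.2 FPKM in Lien 11 to 15, against 386.5, 305.7, 448.8, 163.9 and 279.1 FPKM in AngII 6 to 10 (log2 -0.06, SE 0.61). Col3a1, type III collagen, was at 169 to 878 FPKM in Lien and 193 to 503 FPKM in AngII (log2 -0.05, SE 0.43). Lien 11 was the highest library for both. Tnc, the matrix protein tenascin-C, was at 1.13, 2.31, 2.60, 1.94 and 2.89 FPKM in Lien 11 to 15, against 6.76, 6.28, 8.02, 6.62 and 1.18 FPKM in AngII 6 to 10 (log2 -0.97, unadjusted p = 0.0322), with AngII 10 within the Lien range. Timp4, an inhibitor of matrix proteases, was at 19.2 to 20.8 FPKM in Lien and 10.5 to 16.2 FPKM in AngII, without overlap (log2 0.51, unadjusted p = 0.0095).

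The median of the contractile smooth muscle genes turned sign without a single library and with scaling to one median. All 16 were tested, 13 lay on the lower side, beside 70.2% of all genes, and 0 had an unadjusted p under 0.05 in limma. Their median was -0.19, or 0.15 without Lien 13. With scaling to one median it was 0.0043, with 8 genes higher and 8 lower. Acta2, smooth muscle actin, stood at 1928, 1729, 188, 798 and 1765 FPKM in Lien 11 to 15, against 1814, 1800, 553, 624 and 1422 FPKM in AngII 6 to 10 (log2 -0.17, SE 0.57). In bulk tissue, fewer cells of a type and less RNA per cell cannot be told apart. Of 27 ion channels and pumps, 23 lay on the lower side, as did 70.2% of all genes. Their median was -0.17 (0.03 with scaling to one median). Of the 27, 3 had an unadjusted p under 0.05, all lower, beside 5.34% of all genes on that side, and 0 passed. Among these 3 were Atp2b1, a calcium pump of the cell membrane, and Cacna1c, with a difference of -0.69 each. Cacna1c is the L-type calcium channel subunit that dihydropyridines block. Agtr1a, the angiotensin receptor gene, was at 5.17 to 13.2 FPKM in Lien and 5.14 to 12.6 FPKM in AngII (log2 -0.11, SE 0.36).

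Endothelial identity genes lay close to 0 beside the regulators above, with a median of -0.06 (0.14 with scaling to one median). Of these, 17 of 20 lay on the lower side, as did 70.2% of all genes. Pecam1, an endothelial adhesion molecule, was at 64.8 to 114 FPKM in Lien and 83.2 to 95.0 FPKM in AngII (log2 -0.02). Cdh5, VE-cadherin, was at 61.0 to 75.3 FPKM in Lien and at 7.69, 66.3, 20.7, 75.2 and 3.99 FPKM in AngII 6 to 10 (log2 1.66, unadjusted p = 0.0383). The low Cdh5 values of AngII 6, 8 and 10 had no counterpart in Pecam1, and the gene sums leave out transcripts without identifiers. Of 20 flow-responsive genes, 16 lay on the lower side with a median of -0.25 (-0.05 with scaling to one median). Klf2, Klf4 and Mef2c, a factor upstream of Klf2, had an unadjusted p under 0.05, all lower, beside 5.34% of all genes. Klf4, a partner of Klf2 under flow, stood at 38.2, 26.9, 20.4, 24.7 and 23.0 FPKM in Lien 11 to 15, against 41.0, 37.4, 35.8, 34.5 and 35.1 FPKM in AngII 6 to 10 (log2 -0.48, unadjusted p = 0.00996), where Lien 11 alone reached the AngII range.

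No stress or inflammatory gene passed, and the lower side, which held 70.2% of all genes, lost its lead in some lists with other settings. In the glucocorticoid list, 13 of 16 were lower, with a median of -0.20, and with scaling to one median 8 were lower and 8 higher, with a median of -0.0041. Errfi1, an inhibitor of the EGF receptor, was at 61.8 to 113 FPKM in Lien and 104 to 146 FPKM in AngII (log2 -0.71), and Sgk1, a kinase that aldosterone and glucocorticoids induce, had a difference of -0.34. In the heat shock list, 16 of 18 were lower, against 10 with scaling to one median and 8 with a nerve covariate. Of these genes Chordc1, a cochaperone of HSP90, stood apart at 5.41 to 8.16 FPKM in Lien and 8.66 to 12.3 FPKM in AngII (log2 -0.52, limma adjusted p = 0.68). In the unfolded protein response list, 14 of 19 were lower. There Dnajb9, a chaperone of the endoplasmic reticulum, stood apart at 23.7 to 27.8 FPKM in Lien and 30.2 to 37.5 FPKM in AngII (log2 -0.37, limma adjusted p = 0.655). Of all genes, 0.802% lay wholly apart on the lower side. Of 16 NF-κB and inflammation genes, 14 were lower, with a median of -0.38 that became -0.08 with the lymphocyte covariate. Rela, a subunit of NF-κB, was at 27.8 to 36.4 FPKM in Lien and 32.4 to 40.7 FPKM in AngII (log2 -0.25).

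Genes of energy metabolism differed by small amounts, in directions that varied between lists. Of 72 nuclear genes of oxidative phosphorylation, 70 lay on the higher side, against 29.8% of all genes, but only Uqcrfs1, a subunit of complex III, had an unadjusted p under 0.05. The median was 0.22. Uqcrfs1 was at 132 to 579 FPKM in Lien and 75.7 to 462 FPKM in AngII (log2 1.39), and Atp5b, a subunit of ATP synthase, at 582 to 2143 FPKM in Lien and 1078 to 1733 FPKM in AngII (log2 0.22). Of 19 fatty acid oxidation genes, 16 were higher, with a median of 0.24. With a nerve covariate both medians were negative, at -0.11 and -0.20. With the muscle, heart and brown fat covariates they were 0.16 and 0.14, and with the lymphocyte covariate 0.06 and 0.0016. The 9 genes of oxidative phosphorylation encoded in mitochondrial DNA split into 3 higher and 6 lower, with a median of -0.39. Beside this, the brown adipocyte list averaged 4.29 in Lien 11 and 6.04 to 6.58 in Lien 12 to 15, against 5.55 to 5.97 in AngII, on the log2(FPKM + 1) scale. Ucp1, the uncoupling protein of brown fat, was at 142 FPKM in Lien 11 and 1187 to 1921 FPKM in Lien 12 to 15, against 359 to 933 FPKM in AngII.

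Of 80 ribosomal protein genes, 73 lay on the lower side, as did 70.2% of all genes. Their median was -0.22 and turned to 0.06 with the lymphocyte covariate and without the libraries rich in nerve genes. Rplp1, a stalk protein of the large subunit, was at 948 to 1442 FPKM in Lien and 773 to 1844 FPKM in AngII (log2 -0.18). Of 24 cell cycle genes, 23 lay on the lower side, and Pcna, the sliding clamp of DNA replication, was at 25.2 to 33.6 FPKM in Lien and 28.7 to 41.8 FPKM in AngII (log2 -0.30, unadjusted p = 0.0373). The median of this list was -0.31, or -0.0024 with the lymphocyte covariate.

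**Figure D4:**
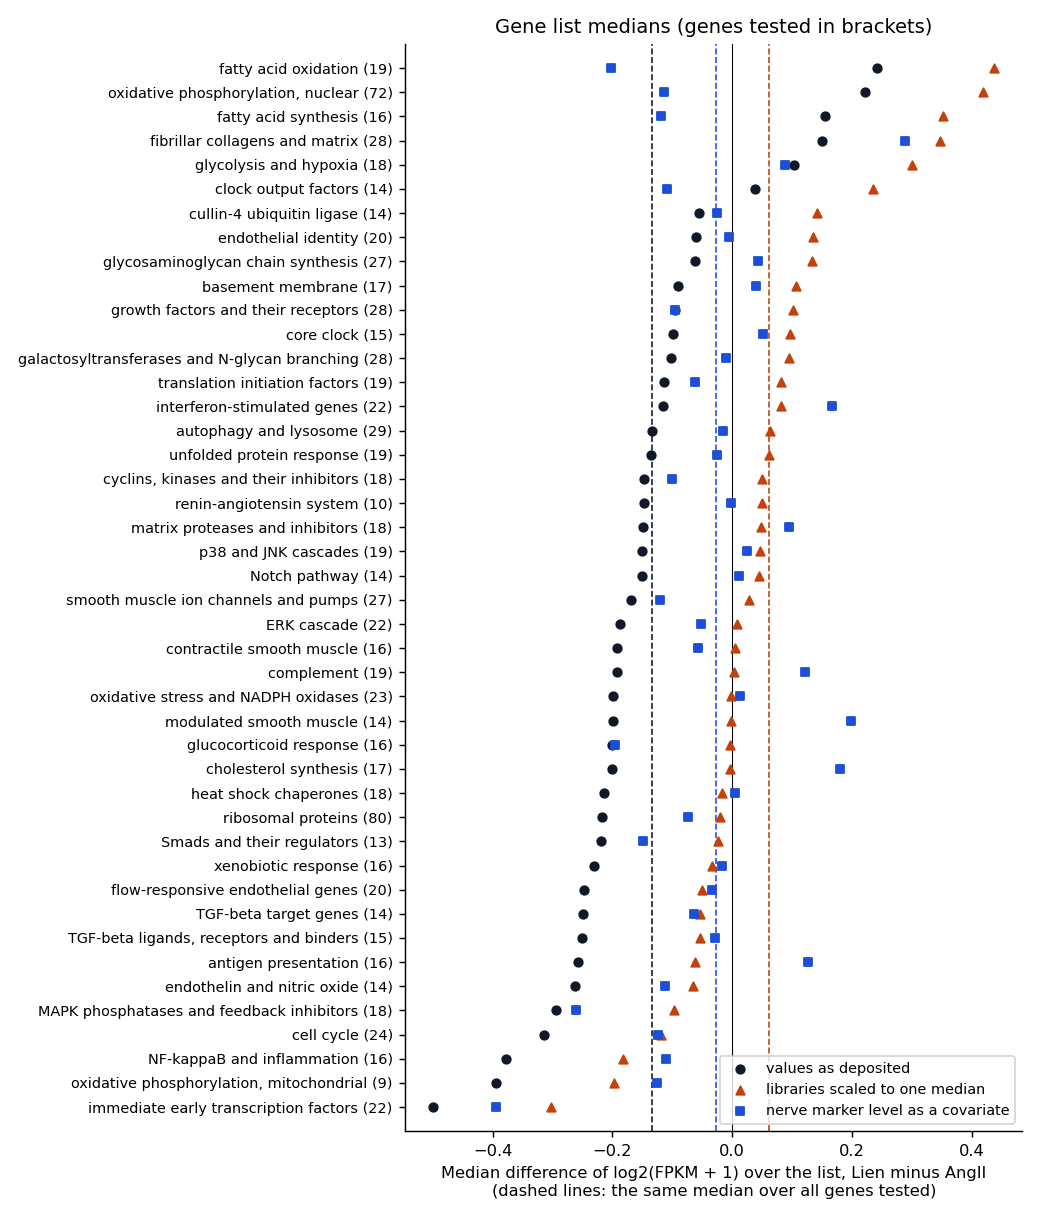
Median difference of log2(FPKM + 1), Lien minus AngII (x axis), of each pathway list (y axis, genes tested in brackets), for values as deposited, after scaling the libraries to one median and with a nerve covariate, with dashed lines at the medians of all genes (-0.13, 0.06 and -0.03). The early transcription factors lie lowest of all lists as deposited and in both alternatives, at -0.50, -0.30 and -0.39, while oxidative phosphorylation (nuclear) turns to -0.11 with the nerve covariate.

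No marker gene of another tissue passed, but the lists differed widely between libraries. All 17 neuronal, all 14 Schwann cell, all 16 T cell, all 12 skeletal muscle and all 8 posterior Hox genes tested lay on the lower side in Lien, with medians of -1.58, -0.60, -1.22, -1.22 and -0.54. That side held 70.2% of all genes. Cardiomyocyte genes (9 of 13, median 0.54) and mesothelial genes (7 of 8, median 0.39) lay mostly on the higher side. The neuronal list averaged 5.45 in Lien 11 and 0.481 to 1.12 in Lien 12 to 15, against 5.48, 3.03, 2.20, 5.20 and 1.27 in AngII 6 to 10. Th, the defining enzyme of sympathetic neurons, was listed at 0 in Lien 12 and Lien 14 and at 107.3 FPKM in AngII 6. T cell genes averaged 2.19 in Lien 11 and at most 0.887 in the other Lien libraries, against 3.66 and 3.80 in AngII 7 and 9 and at most 1.51 in the other AngII libraries. Myl7, an atrial myosin gene, was listed at 0 in Lien 11 and in AngII 6, 7 and 10 and stood at 185.9 FPKM in AngII 8. B4galt1 passed with each tissue covariate. B3gat2 passed with the nerve covariate (limma adjusted p = 0.0246) and was lost with the lymphocyte covariate (0.0563) and with the muscle, heart and brown fat covariates (0.0825). With the nerve covariate the differences of Klf2 and Phlda1 were -0.95 and -0.79. The labelled tissue showed its own markers in every library, with Myh11 at 49.1 to 455 FPKM in Lien and 136 to 360.5 FPKM in AngII, lowest in Lien 13, and Kdr at 23.7 to 31.2 and 20.9 to 30.8 FPKM in the same order.

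**Figure D5:**
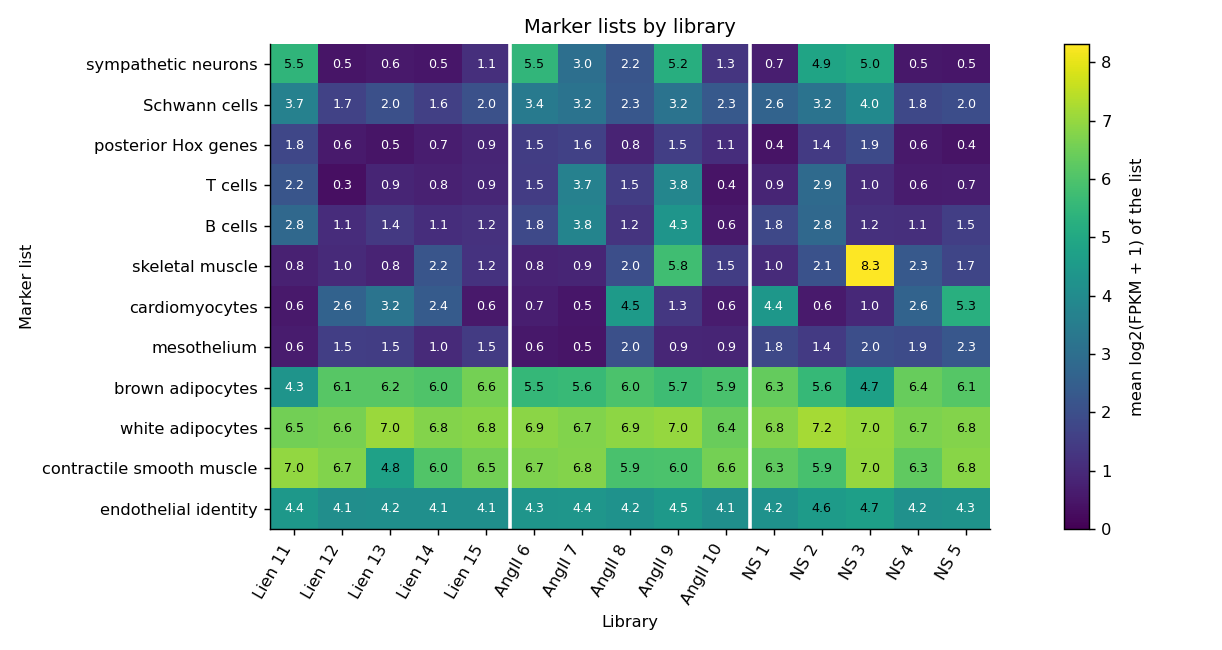
Mean log2(FPKM + 1) of each marker list (rows) in each library (columns, Lien, AngII and NS from left to right). Neuronal markers are high in Lien 11, AngII 6, AngII 9, NS 2 and NS 3 and next highest in AngII 7, at 3.025. T and B cell markers are highest in AngII 7 and AngII 9, and contractile smooth muscle is lowest in Lien 13, at 4.77.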

How the data were processed

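Ribosome-depleted total RNA was sequenced in 15 libraries of 3 groups, per the labels. The table the authors deposited holds 131437 transcripts in FPKM, a unit read here from the values, since no header names it. For the aligner, quantifier, build and annotation the sources used here give nothing, and limma appears without a version in the submitters' processing notes. Of 101208 Ensembl transcripts, 99965 matched GENCODE M21 (GRCm38) and were summed to 32930 genes. The 30229 transcripts without identifiers, 11.0% to 16.1% of the sum of values in the 10 libraries, stayed out of gene sums. Low values lay within 0.05 of an even step for 99.7% to 99.8% of values. With 4 steps as 1 fragment the depth is 1.57e+07 to 1.93e+07 fragments per library, and with 1 step 4 times as high. No counts are given, so no counting intervals are.

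Tested were genes reaching 0.5 FPKM in 5 or more libraries, on log2(FPKM + 1) with limma 3.58.1 (3 group means over 15 libraries, 12 residual degrees of freedom, trend and robust options, two-sided). Transcripts were tested likewise. In simulated data of this comparison with 200 of 15586 genes altered, recovery was 54.6% at a fold of 2 and 85.2% at a fold of 4, with 5.52% false calls. The simulation drew independent normal noise for each gene and altered only genes with a mean log2(FPKM + 1) above 1. It held no tissue RNA shared across genes, and 200 altered genes loosen the adjusted threshold. These shares therefore do not carry over to the real libraries.

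Members, the 57 gene lists and the tests were chosen with earlier results of these data known. The genes named were those called, the 12 smallest p-values on each side among protein-coding genes with a standard symbol and a mean of at least 1 FPKM, up to 4 smallest p-values and 2 highest levels of a list described, the 8 clock genes of smallest p, and a fixed set of TGF-β, MAPK, collagen and vessel genes, some of which are not reported here. Lists are described by counts and medians without a test. Sequences are from RefSeq and GENCODE M21. Versions were Python 3.11.15, pandas 2.3.3, numpy 2.4.6, scipy 1.17.1 and matplotlib 3.10.9. Alternatives covered pseudocount, filters, scaling, covariates and left-out libraries.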

Additional observations from a re-analysis of the deposited data

Results flagged for a closer look

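Among the 46 named genes, 92 groups of 5 libraries were examined for a library far from the others on the log2(FPKM + 1) scale, and 7 were marked, while chance marks about 1 group in 20. Lien 11 stood above the rest of its group for Tgfbr1 (11 FPKM, others 4.31 to 5.62), Tgfbr2 (49.2 FPKM, others 30.2 to 33.4), Mapk3 (116 FPKM, others 53.8 to 67.1) and Cdk17 (12.2 FPKM, others 9.73 to 10.4). AngII 9 stood below its group for Crbn (14.4 FPKM, others 27.0 to 32.2). AngII 10 stood below its group for Mapk8 (5 FPKM, others 6.57 to 7.12), and AngII 8 above its group for B3gat2 (0.261 FPKM, others 0 to 0.0597).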

How the results depend on the processing

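No paired analysis was possible because the groups share no replicate numbers. B4galt1 was called in all 28 alternatives. The number of genes called was 2, and it was 1 with a mean of at least 1 FPKM, quantile normalization, scaling to one median, the 10 libraries alone, the muscle, heart and brown fat covariates or the lymphocyte covariate, 6 with library weights (2 higher, 4 lower) and 1 to 3 when any 1 library was left out. The 997 genes at an unadjusted p under 0.05 became 3131 with library weights, 646 with the lymphocyte covariate and 618 to 2965 without 1 library, the highest without Lien 11. Genes whose groups lay apart were 153, or 207 to 1336 without 1 library, again the highest without Lien 11. Leaving out a library can only keep or add such genes, so a higher count by itself shows no dependence on that library. Transcripts called were 4, or 2 with scaling to one median and 2 to 6 without 1 library. B4galt1 plus the assembled transcript had a log2 difference of -0.38, where the gene alone had 2.30, because that transcript moved the other way.

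Differences near 0 turned sign. With scaling to one median, Col1a1 was 0.13, Col3a1 0.15, Acta2 0.03, Agtr1a 0.08 and Arntl 0.10, and with quantile normalization Agtr1a was 0.05 and Arntl 0.10. With the nerve covariate, Mapk3 was 0.15, Col1a1 0.46, Col3a1 0.28, Agtr1a 0.38 and Arntl 0.39. With the lymphocyte covariate, Col1a1 was 0.04, Agtr1a 0.22 and Arntl 0.39. With the muscle, heart and brown fat covariates, Mapk14 was -0.00, Agtr1a 0.01 and Arntl 0.06. Without the libraries rich in nerve genes, Mapk14 was -0.06 and Agtr1a 0.13. Without 1 library the range was -0.42 to 0.42 for Acta2, -0.33 to 0.05 for Agtr1a, -0.40 to 0.22 for Arntl, -0.43 to 0.25 for Col1a1, -0.40 to 0.19 for Col3a1, -0.13 to 0.16 for Mapk14 and -0.37 to 0.08 for Smad7. The cause was not tested. Scaling to one median moves the median of all genes from -0.13 to 0.06, so small differences have no settled sign.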
